A study of Mus musculus with 6 samples.

Results

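The genes described here are 10 components of adherens junctions, the contacts that hold neighbouring cells together, out of 52636 genes in the count table. They are the classical cadherins Cdh1, Cdh2, Cdh3, Cdh5 and Cdh11, the catenins Ctnnb1, Ctnna1 and Ctnnd1, and the nectin system genes Afdn and Nectin4. They were chosen by name, with their difference between the cell lines already known, so their values are given as a description and without a test. RNAseq was performed on cultured cells of 2 mouse mammary cancer lines, with 3 biological replicates of each. J110 cells came from mice in which the MMTV LTR, a promoter active in mammary epithelium, drove an AIB1 cDNA. SSM3 cells came from mouse mammary tumours of another origin. Both were grown in DMEM/F12 with insulin and hydrocortisone, and SSM3 cells had more serum, more CO2 and added holo-transferrin and β-mercaptoethanol. Cell line, genotype and culture medium therefore cannot be told apart in any difference below, and each line is a single tumour-derived line.

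Total counts ranged from 4200785 to 5416305 per library. A level is given in CPM, counts scaled to a common library total with TMM, and every mean CPM and every percentage with a ± sign is a mean ± SD over the 3 libraries of a line (n = 3). A ± sign after a log2 fold change, always SSM3 against J110, gives its standard error in edgeR's fit over all genes. Each transcript is sampled once, at its 3′ end, so CPM was not divided by transcript length. The floor, a count of 3, lay between 0.578 and 0.668 CPM, and intervals and floors cover counting error only. Ncoa3, which encodes AIB1, had 110, 106 and 102 counts in J110 and 181, 199 and 186 in SSM3, so it was not higher in the line that carries the transgene. Whether the counted 3′ end is part of the introduced cDNA is not given in the sources used here, and every direction rests on the labels. Epcam, an epithelial surface gene, had 2, 1 and 7 counts in J110 libraries, and the SSM3 libraries had 2376, 2404 and 2412. In cultures as in any bulk sample, fewer cells that express a gene and less RNA per cell cannot be told apart.

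Classical cadherins span the membrane and bind cadherins of the next cell in the presence of calcium. Their tails bind β-catenin (Ctnnb1) and p120-catenin (Ctnnd1), and β-catenin binds α-catenin (Ctnna1), which connects the complex to actin. Nectins form a second set of contacts that reach actin through afadin (Afdn). Cdh1 (E-cadherin) is the main cadherin of luminal mammary epithelium, Cdh3 (P-cadherin) is found in its basal cells, Cdh2 (N-cadherin) in neural and many mesenchymal cells, Cdh5 (VE-cadherin) in endothelium and Cdh11 in mesenchymal cells.

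The lines carried different cadherins. SSM3 libraries held Cdh1 with a little Cdh3, and J110 libraries held Cdh5 and Cdh2, with Cdh1 at a low level. The catenins and Afdn were counted in both lines, with levels 1.49-fold to 2.39-fold lower in SSM3, where the upper end is Ctnnb1, whose value is uncertain because its reads cannot be told from those of Ulk4. Of the 9 members that passed the filter on low counts, 3 had a higher mean in SSM3 and 6 a lower one. The libraries of the lines did not overlap for 9 of 9, and they did not overlap for 79.6% of all genes tested. At least 2-fold differences were found in 3 members higher in SSM3, where 21.2% of all genes tested reached this, and in 4 members lower in SSM3, where 22.5% did. The median log2 fold change was -0.62 over the 9 members and -0.014 over all genes tested. Cdh2, Cdh3, Cdh5 and Nectin4 passed the filter only through the line where they were high, so these counts and medians describe the members and support nothing.

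**Figure D1:**
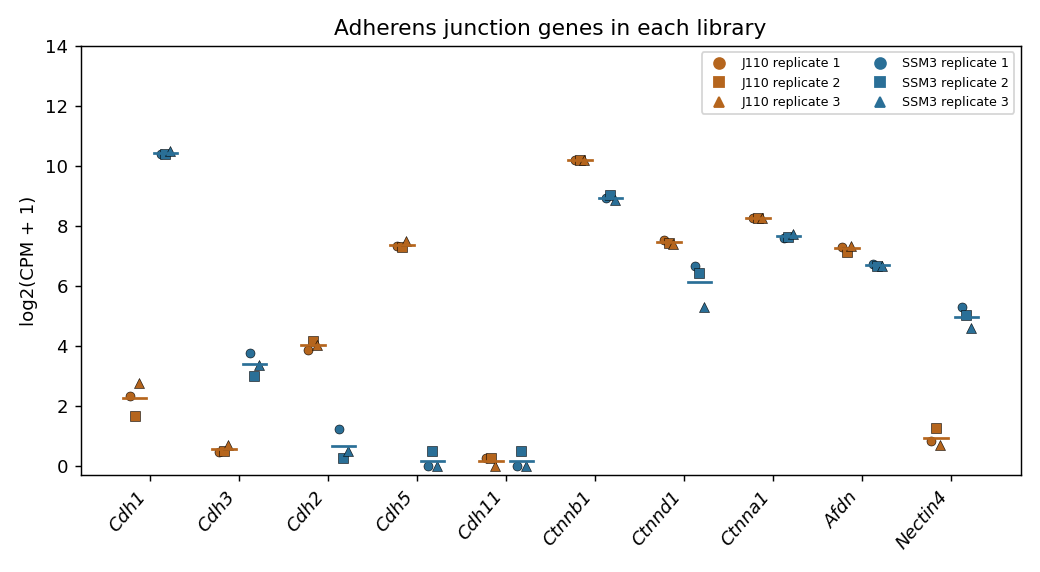
The vertical axis is log2(CPM + 1) of the 10 genes in each library, orange for J110 and blue for SSM3, with a marker shape for each replicate and a line at the mean of the 3 replicates. Cdh1, Cdh3 and Nectin4 sit higher in SSM3, Cdh2 and Cdh5 sit higher in J110, Cdh11 lies near 0 in both, and SSM3 replicate 3 stands below the other SSM3 libraries for Ctnnd1.

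Cdh1 (ENSMUSG00000000303, chr8:106603351-106670246 of mm10, forward strand) had J110 counts of 21, 11 and 28 and SSM3 counts of 6019, 6369 and 7179 in replicates 1 to 3. The groups lay far apart, and the J110 libraries varied more among themselves (CV 45.6%) than those of SSM3 (CV 3.48%). The mean of J110 was 4.02 ± 1.83 CPM and that of SSM3 1374 ± 47.8 CPM, a count ratio of 345 with 95% counting limits of 268 and 452.

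Cdh3 (ENSMUSG00000061048, chr8:106510891-106557297, forward strand) lies near Cdh1 and was also higher in SSM3, at a far lower level. It had 2, 2 and 3 counts in J110, at the floor, and 57, 33 and 47 counts in SSM3. The SSM3 mean was 9.68 ± 2.86 CPM, and the ratio of the lines was 20.7 with 95% limits of 9.77 and 52.4.

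Cdh5 (ENSMUSG00000031871, chr8:104101625-104144511, forward strand) showed the reverse pattern. Its J110 counts were 836, 790 and 856, and the only 2 counts in SSM3 were in replicate 2. Its mean in J110 was 165 ± 11.8 CPM, and J110 exceeded SSM3 by a ratio of 1174 in counts summed over the 3 libraries, with 95% counting limits of 325 and 9701. The ratio is loose because the SSM3 side rests on 2 counts, and without SSM3 replicate 2 the fitted log2 fold change went from -9.96 to -12.66.

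Cdh2 (ENSMUSG00000024304, chromosome 18 from 16588877 to 16809246, reverse strand) had J110 counts of 71, 86 and 74 and SSM3 counts of 6, 1 and 2. J110 averaged 15.4 ± 1.66 CPM and SSM3 0.649 ± 0.602 CPM, a ratio of 24.3 with 95% limits of 12.6 and 53.8. The J110 libraries lay close together, and SSM3 replicate 1 held most of the SSM3 counts, without which the fitted log2 fold change went from -4.55 to -5.52. Cdh11 (ENSMUSG00000031673, chr8:102632095-102785642, reverse strand) had J110 counts of 1, 1 and 0 and SSM3 counts of 0, 2 and 0. It was at the floor in both lines, was not tested, and has no fold change.

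Low counts on genes that belong to the other line differed between libraries, and they bear on the low side of the cadherins. Among genes with at least 100 CPM in the other line and at most 3 counts in the 2 remaining libraries of their own line, counts were seen on 39 of 49 genes in J110 replicate 3 and on 33 of 34 in SSM3 replicate 2. The median level there was 0.185% and 0.426% of the other line's mean, and it was 0 in the 4 other libraries. Cdh1 in J110 reached 0.295%, 0.158% and 0.425% of its SSM3 mean in replicates 1 to 3, highest in replicate 3. Its values in replicates 1 and 2 were above the 90th percentile of such genes, 0.236% and 0.139%, and its value in replicate 3 was below that library's, 0.597%. Those genes were chosen for low counts, and Cdh1 was not among them. The 2 counts of Cdh5 in SSM3 replicate 2 made 0.257% of its J110 mean, under the median of that library. Cdh5 is itself among the genes behind that median, so the 2 values are not independent. Cdh2 was at 8.69%, 1.38% and 2.59% of its J110 mean in SSM3 replicates 1 to 3, and Cdh3 at 3.98%, 4.08% and 6.46% of its SSM3 mean in J110 replicates 1 to 3. Both stayed below 100 CPM in either line, so they were not set against these genes. The part of such counts in the low values was not tested.

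Summed over all 23 cadherins listed here, J110 held 252 ± 12.2 CPM and SSM3 1392 ± 46.9 CPM. In SSM3, Cdh1 made up 98.7 ± 0.27% of the sum. In J110, Cdh5 made up 65.6 ± 1.54% and Cdh1 1.58 ± 0.655%. The sum of the 3 member catenins was the larger in J110, at 1652 ± 15.0 CPM, and was 765 ± 49.5 CPM in SSM3. Of both sums Ctnnb1 was the largest part, and its value is uncertain, as given below.

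**Figure D2:**
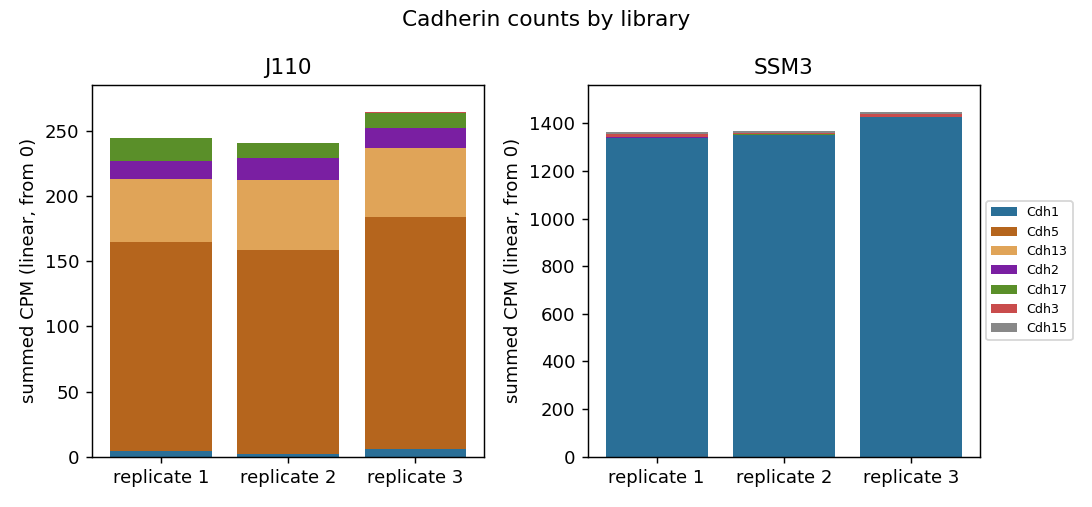
Stacked bars give the CPM of the 7 most counted cadherins in each replicate, from 0, with a separate vertical scale for each line (the SSM3 axis reaches further than the J110 axis). The J110 bars are mostly Cdh5 with Cdh13, Cdh2 and Cdh17, and the SSM3 bars are almost entirely Cdh1.

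Ctnnb1 (ENSMUSG00000006932, chr9:120929216-120960507, forward strand), β-catenin, had J110 counts of 6110, 5919 and 5568 and SSM3 counts of 2197, 2442 and 2317. The groups did not overlap, and J110 averaged 1170 ± 8.02 CPM and SSM3 490 ± 28.8 CPM (log2 fold change -1.26 ± 0.068). Its exons share 759 bases with those of Ulk4, a gene on the opposite strand, and the last shared block of 475 bases (chr9:120960033-120960507) ends at the last base of Ctnnb1, where 3′ reads are expected. The Ulk4 count was between 99.2% and 99.6% of the Ctnnb1 count in every library. Reads of the 2 genes cannot be told apart here, so the Ctnnb1 value is uncertain.

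**Figure D3:**
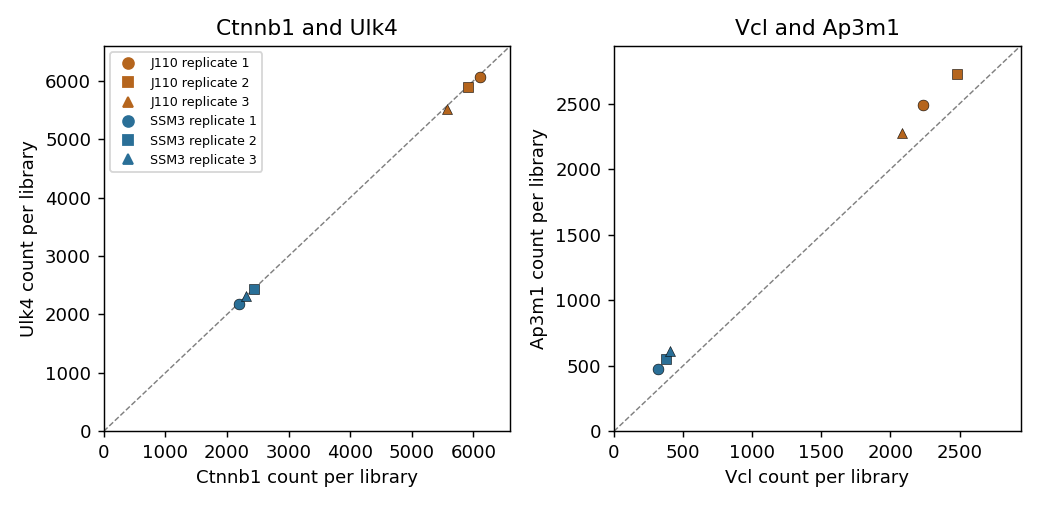
Counts per library of Ctnnb1 (horizontal) and Ulk4 (vertical) on the left, and of Vcl and Ap3m1 on the right, with a dashed line where both counts are equal, orange for J110 and blue for SSM3. Ulk4 points lie on the line in all 6 libraries, and Ap3m1 points lie above it.

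Ctnna1 (ENSMUSG00000037815, chromosome 18 from 35118859 to 35254779, forward strand), α-catenin, had J110 counts of 1586, 1541 and 1481 and SSM3 counts of 867, 930 and 1053. J110 averaged 307 ± 2.23 CPM and SSM3 200 ± 8.52 CPM (log2 fold change -0.62 ± 0.069). The libraries of each line lay close together and those of different lines did not overlap.

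Ctnnd1 (ENSMUSG00000034101, chr2:84600071-84650765, reverse strand), p120-catenin, had J110 counts of 955, 877 and 801 and SSM3 counts of 456, 404 and 191. J110 averaged 175 ± 8.57 CPM and SSM3 75.1 ± 33.1 CPM (log2 fold change -1.23 ± 0.21). SSM3 replicate 3 was the lowest library by far, and without it the log2 fold change was -0.90, which leaves 3 members at least 2-fold lower in SSM3. Ctnnd1 shares 4482 exon bases with Gm28635 on the same strand, whose count was between 2.28% and 15.7% of that of Ctnnd1.

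Afdn (ENSMUSG00000068036, chr17:13760539-13906150, forward strand), the actin-binding partner of nectins, had J110 counts of 820, 709 and 759 and SSM3 counts of 472, 472 and 510. J110 averaged 152 ± 10.4 CPM and SSM3 102 ± 2.53 CPM (log2 fold change -0.57 ± 0.082), and the groups did not overlap. Nectin4 (ENSMUSG00000006411, chr1:171370099-171388598, forward strand), a nectin of epithelial cells, had J110 counts of 4, 7 and 3 and SSM3 counts of 173, 148 and 116. Here SSM3 was higher, at 31.0 ± 7.73 CPM against 0.927 ± 0.403 CPM, a ratio of 33.0 with 95% limits of 19.5 and 60.9. Nectin4 in J110 was at 2.49%, 4.46% and 2.02% of its SSM3 mean, and like Cdh2 and Cdh3 it stayed below 100 CPM.

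For the promoters, RefSeq sequence of the 250 bases before a start (GRCm38.p6, the same assembly as mm10) was given for 6 starts of Afdn, Ctnnb1, Ctnnd1 and Nectin4. Snail and Zeb factors, which repress Cdh1, bind the E-box CACCTG, which reads as CAGGTG on the other strand. Either form occurred in 0 of 6 member starts and in 17.2% of 32851 promoters. The general E-box CANNTG, of which both are cases and which reads alike on both strands, occurred in 2 of 6 member starts, one of Nectin4 and one of Ctnnd1, and in 66.2% of promoters. The parts of the windows outside exons are shown for the Nectin4 start, which holds 2 such E-boxes (in capitals), and for one Ctnnb1 start, which holds none, as examples of a start with and without the letters. Of the members with the letters, Nectin4 was higher and Ctnnd1 lower in SSM3. Nectin4 is chr1:171369923-171370098 and Ctnnb1 chr9:120933150-120933399, both on the forward strand, 5′ to 3′.
Nectin4: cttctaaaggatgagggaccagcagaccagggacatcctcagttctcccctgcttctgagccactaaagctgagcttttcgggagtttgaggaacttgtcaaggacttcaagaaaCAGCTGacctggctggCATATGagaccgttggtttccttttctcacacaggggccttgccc
Ctnnb1: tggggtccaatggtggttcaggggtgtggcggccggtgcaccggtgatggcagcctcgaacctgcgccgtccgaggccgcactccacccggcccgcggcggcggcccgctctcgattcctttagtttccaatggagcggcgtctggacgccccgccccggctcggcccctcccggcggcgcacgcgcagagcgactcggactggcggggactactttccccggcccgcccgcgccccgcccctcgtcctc
A match is a description of these letters and not a site of binding.

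Cdh5 is known as an endothelial gene, and 20 further endothelial markers were set beside it. In each line 6 of the 20 were above the floor and 14 at it, 11 of them with no count, and the summed level was between 126 and 134 CPM in J110 and between 81.1 and 94.3 CPM in SSM3. In J110 the sum came mostly from Flt1, a VEGF receptor, with 559, 551 and 515 counts against 2, 5 and 5 in SSM3. Cdh5 was therefore not alone among endothelial genes in J110. Egfl7, a secreted factor of endothelium, had 46, 73 and 45 counts in J110 and more in SSM3, with 128, 130 and 167, and it shares exon bases with Agpat2. Esam, a junction protein of endothelium, had 33, 38 and 31 counts in J110, and Kdr, the main VEGF receptor, 8, 11 and 6. The defining genes Pecam1, with 3, 0 and 4 counts in J110, and Tie1, Emcn, Cldn5 and Erg, with 0 in every library, were at or near 0. SSM3 libraries held other endothelial genes without Cdh5. Ecscr had 116, 157 and 154 counts and Plvap 87, 115 and 127 in SSM3, both with 0 in J110. Fibroblast markers summed to at most 1.98 CPM and leukocyte markers to at most 1.06 CPM in any library.

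**Figure D4:**
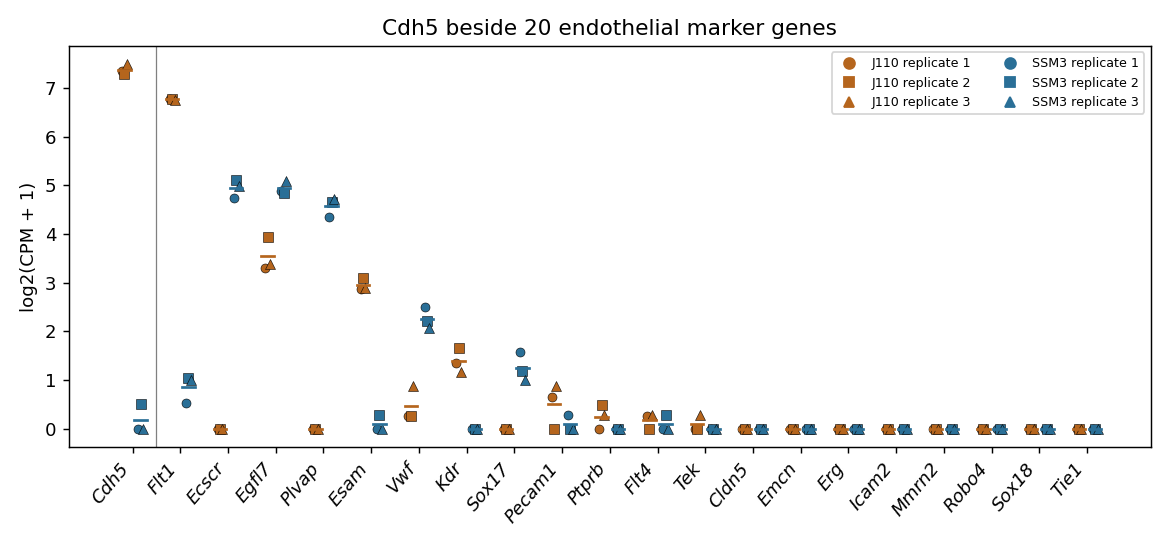
The vertical axis is log2(CPM + 1) of Cdh5 and of 20 endothelial marker genes in each library, orange for J110 and blue for SSM3, with a line at the mean of the 3 replicates. Cdh5, Flt1, Esam and Kdr are higher in J110, Ecscr, Plvap, Egfl7 and Vwf are higher in SSM3, and most of the other markers lie at 0.

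Related adherens junction genes were tested with edgeR's quasi-likelihood test, with Benjamini-Hochberg adjustment over 12284 genes. Of these, 77.9% were called at an adjusted p of 0.05, with 38.6% higher and 39.2% lower in SSM3. Among 66 related genes in 5 lists, 42 could be tested, 20 were higher and 20 lower in SSM3, 2 were not called, and 21 were at the floor in every library. Some of the called genes passed the filter on low counts only through the line where they were high. The counts per list therefore describe these genes and support nothing about the lists.

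Of 18 other cadherins, 3 could be tested, 14 were at the floor in every library and 12 of those had no count. Cdh13, T-cadherin, which lacks the tail that binds catenins, had 249, 272 and 251 counts in J110 and 1, 0 and 0 in SSM3, a ratio of 730 with 95% limits of 131 and 28887 (edgeR adjusted p = 2.87e-13). Cdh17, the cadherin of intestinal epithelium, had 92, 58 and 55 counts in J110 and 0, 4 and 1 in SSM3, a ratio of 38.8 with 95% limits of 16.4 and 121 (edgeR adjusted p = 3.22e-08). Cdh15, the cadherin of muscle, went the other way, with 0 counts in J110 and 36, 30 and 39 in SSM3, at least 12.3-fold higher against the floor of each library (edgeR adjusted p = 4.6e-08). All 3 passed the filter only through the line where they were high, and the low side of each rests on few counts or none. Without SSM3 replicate 2, which held 4 of the SSM3 counts of Cdh17 and was the library with the most widespread low counts on J110 genes, the fitted log2 fold change of Cdh17 went from -5.17 to -6.70. Without SSM3 replicate 1, which held the single SSM3 count of Cdh13, that of Cdh13 went from -9.07 to -10.99. Cdh13 and Cdh17 thus accompanied Cdh5 and Cdh2 in J110, and Cdh15 accompanied Cdh1 in SSM3.

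Of 18 other catenins and actin linkers, 15 could be tested, 7 were higher and 8 lower in SSM3, with a median log2 fold change of -0.61. Vcl, vinculin, which binds α-catenin under tension, was the most highly counted and was lower in SSM3, with 77.5 ± 5.09 CPM against 453 ± 33.3 in J110 (log2 fold change -2.54 ± 0.084, edgeR adjusted p = 7.91e-14). Vcl shares 2090 exon bases with Ap3m1 on the opposite strand, whose counts were 109% to 111% of those of Vcl in J110 and 148% to 150% in SSM3, so its value is uncertain. Jup, plakoglobin, which can take the place of β-catenin on cadherins, rose from 60.1 ± 9.91 to 182 ± 10.4 CPM (log2 fold change 1.59 ± 0.10, edgeR adjusted p = 5.9e-10). Vasp, an actin polymerisation factor, was also higher in SSM3 (log2 fold change 0.76 ± 0.075, edgeR adjusted p = 1.02e-07). Camsap3, which anchors microtubule minus ends and is recruited to these junctions, had 0, 1 and 0 counts in J110 and 212, 247 and 241 in SSM3 (edgeR adjusted p = 2.97e-13). It passed the filter on low counts only through SSM3, so its direction was fixed by that. It shares 570 exon bases with Xab2 on the opposite strand, which had 57, 52 and 53 counts in J110 and 299, 370 and 368 in SSM3, more than Camsap3 and higher in the same line, so the Camsap3 value is uncertain. The single J110 count of Camsap3 was in replicate 2, and without that library its fitted log2 fold change went from 9.06 to 10.89. Ctnnal1, an α-catenin relative, was lower in SSM3 (log2 fold change -3.22 ± 0.21, edgeR adjusted p = 5.81e-10). The neural catenin Ctnnd2 and Ctnna3 were at the floor.

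Of 8 other nectins and nectin-like molecules, 5 could be tested, with 2 higher and 2 lower in SSM3. Nectin2 was higher in SSM3, as Nectin4 was, at 172 ± 8.73 CPM against 8.34 ± 1.84 in J110 (log2 fold change 4.35 ± 0.13, edgeR adjusted p = 1.45e-14). Cadm1, a nectin-like adhesion molecule, was the most highly counted of the list and was lower in SSM3, at 8.54 ± 1.05 CPM against 535 ± 14.1 in J110 (log2 fold change -5.97 ± 0.10, edgeR adjusted p = 8.67e-17). Pvr, the poliovirus receptor relative, was also lower (log2 fold change -1.62 ± 0.12, edgeR adjusted p = 3.03e-09). Nectin1 did not pass the test, with a log2 fold change of -0.016 ± 0.14 (edgeR adjusted p = 0.92).

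Of 17 genes of cadherin turnover, proteases and phosphatases, 16 could be tested, with 10 higher and 5 lower in SSM3 and a median log2 fold change of 0.50. Ptprf, a receptor phosphatase found at cell contacts, was the most highly counted, with 474 ± 36.5 CPM in SSM3 against 226 ± 10.3 in J110 (log2 fold change 1.07, edgeR adjusted p = 1.52e-09). Adam10, the protease that sheds the outer part of E-cadherin, rose from 110 ± 15.1 to 275 ± 13.2 CPM (log2 fold change 1.32, edgeR adjusted p = 1.3e-09). Ptpn1, a phosphatase that acts on β-catenin, was higher too (log2 fold change 2.27 ± 0.079, edgeR adjusted p = 1.48e-13). Ptpn14, a phosphatase of cell junctions, was lower, with 189, 190 and 203 counts in J110 and 3, 0 and 4 in SSM3, a ratio of 78.7 with 95% limits of 37.9 and 197 (edgeR adjusted p = 1.32e-11). It passed the filter on low counts only through J110, so its direction was fixed by that. Arf6, a GTPase of E-cadherin endocytosis, did not pass (log2 fold change 0.031 ± 0.076, edgeR adjusted p = 0.72), and scaling by library size only gave it 0.21 and an adjusted p of 0.0184 in the same test.

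Of the 5 transcription factors known to repress Cdh1, 3 could be tested and 3 were lower in SSM3. All 3 passed the filter on low counts only through J110, so the count of 3 supports nothing about the list. The direction of Snai2 and Zeb1 was fixed by the filter, and Snai1 fell below its cutoff in SSM3 replicate 3. Snai2, Slug, had 227, 262 and 237 counts in J110 and 0, 1 and 0 in SSM3, a ratio of 687 with 95% limits of 123 and 27168 (edgeR adjusted p = 5.2e-13). Zeb1 had 132, 123 and 166 counts in J110 and 0, 1 and 0 in SSM3, a ratio of 398 with 95% limits of 71.1 and 15770 (edgeR adjusted p = 4.61e-11). The single SSM3 counts of Snai2 and Zeb1 were both in replicate 2, and without it the fitted log2 fold changes went from -8.98 to -10.89 and from -8.19 to -10.11. Snai1, Snail, was counted in both lines and was lower in SSM3, with 70, 68 and 57 counts in J110 and 16, 9 and 7 in SSM3 (log2 fold change -2.51 ± 0.28, edgeR adjusted p = 4.71e-07). Twist1 and Zeb2 were at the floor in both lines.

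**Figure D5:**
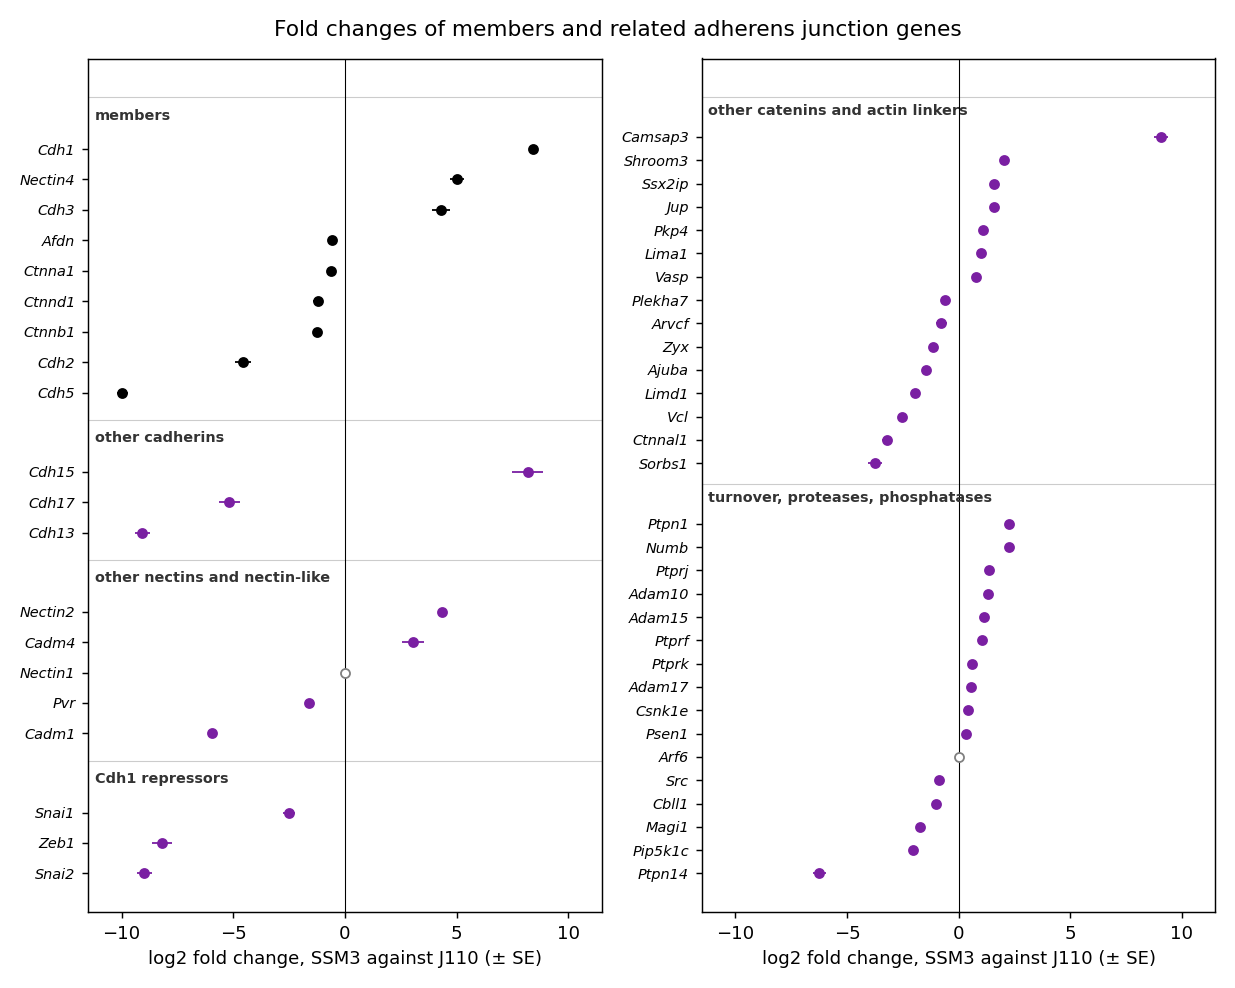
Points give the log2 fold change of SSM3 against J110 (bars, standard error) of 9 members in black and of 42 related genes by list, purple where the adjusted p passed the threshold of 0.05 and open where it did not. Fitted values of genes near 0 in a line, such as Cdh5, Cdh13, Cdh15 and Camsap3, depend on the small prior count of the fit. The members and the lists other than the Cdh1 repressors lie on both sides of 0, and the 3 repressors tested passed the filter only through J110.

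Cdh11, Cdh5, Cdh3 and Cdh1 all lie on chromosome 8, with Gm10073 between the last pair, so the nearest tested genes were examined. Nearest means among tested genes, and some lie megabases away. Got2, taken for both Cdh11 and Cdh5, ends at 95888547, before the Cdh11 start at 102632095. Dsg2 starts at 20558074, past the end of Cdh2 at 16809246. Of 19 different neighbours of the cadherins, members left out, 9 were higher in SSM3, 5 were lower and 5 were not called, beside 38.6% higher and 39.2% lower over all genes tested. Some of these passed the filter on low counts only through the line where they were high, so these counts support nothing. Zfp90 and Gm26786, both among the higher, overlap in position. Their means were 8.12 and 7.65 CPM in J110 and 17.8 and 16.6 CPM in SSM3, and whether they share reads was not tested. Gm10073 had 7.22 CPM in J110 and 7.54 CPM in SSM3 (log2 fold change 0.065, edgeR adjusted p = 0.82), and Tango6, on the other side of Cdh1, had a log2 fold change of -0.063 (edgeR adjusted p = 0.76). The called neighbour with the largest change was Chtf8 for Cdh1 (log2 fold change 1.17, edgeR adjusted p = 4.74e-10), Smpd3 for Cdh3 (-1.92, edgeR adjusted p = 0.00086) and Got2 for Cdh11 (1.51, edgeR adjusted p = 1.04e-11). For Cdh5 it was Cmtm3, with 44.1 CPM in J110 and 0.278 CPM in SSM3 (edgeR adjusted p = 5.86e-13), in the same direction as Cdh5. For Cdh2 it was Dsg2, a desmosomal cadherin, with 0.655 CPM in J110 and 121 CPM in SSM3 (edgeR adjusted p = 2.68e-15), opposite to Cdh2. Smpd3, Cmtm3 and Dsg2 passed the filter on low counts only through the line where they were high, so their directions support nothing.

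The genes most like 3 of the cadherins were found by the root mean square difference of log2 CPM over the 6 libraries. For Cdh1 they were Gata3, a luminal transcription factor, at 0.49, H2-Q7, a class I histocompatibility gene whose near-identical relatives make its count uncertain, at 0.53, and Sprr1a, a cornified envelope gene, at 0.53. For Cdh2 they were Zfp862-ps at 0.18, Lbh at 0.26 and Mcc at 0.28. For Cdh5 they were 3110039M20Rik at 0.17, Ackr3, a chemokine receptor, at 0.22 and Bmp4, a signalling ligand, at 0.27. With 2 lines, this measure mostly ranks genes by their 2 levels.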

How the data were processed

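RNA of 3 J110 and 3 SSM3 cultures was made into libraries with the QuantSeq 3′ kit. The authors trimmed reads with cutadapt (v 2.1), mapped them to mm10 with HISAT2 (v 2.0.4), counted them with featureCounts of Subread (v 2.0.0) and deposited raw counts, not normalised. The strand setting is not given in the sources used here. Of 52636 identifiers, 52489 (99.7%) matched GENCODE M21. Genes were filtered with filterByExpr, scaled by TMM (factors 0.920 to 1.07) and fitted with edgeR (v 4.0.16, R 4.3.3) over all 6 libraries. The standard error is the log2 fold change divided by the square root of F, and the biological coefficient of variation was 8.30%. On simulated counts, 184 of 200 changed genes were recovered and 7 of 191 called genes were unchanged. There only 200 of 12284 genes were changed, with a common dispersion for all genes, while 77.9% of genes tested were called in the data. The simulation therefore does not test the scaling under such wide differences. In chi-square tests replicates differed beyond sampling noise (2.30 to 5.99 per degree of freedom).

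The members and lists were chosen with earlier results of these data known. Named genes are all members; in each list the 3 highest by mean CPM and the 2 largest changes among called genes of at least 10 CPM; for each cadherin the called neighbour (of 3 on each side) with the largest change, and the 3 nearest genes by profile where a line reached 10 CPM. Genes at the floor, genes not called, marker genes, genes that share exons, Ncoa3, Epcam, Gm10073, Tango6, Zfp90, Gm26786, Arvcf, Gja1, Tsnax, Idi1 and Psmb9 were named after their values were seen. The 14 alternatives covered scaling, filters, DESeq2 (v 1.42.0), limma-voom (v 3.58.1), the replicate block and leaving out each library. Protein sequences and cadherin promoters were not used here, and a detail of the mice of origin is not reported here.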

Additional observations from a re-analysis of the deposited data

How the results depend on the processing

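No log2 fold change of a member or related gene that was called changed its direction under the 14 alternatives. Requiring at least 10 counts in every library left 13 related genes called lower, 1 member at least 2-fold higher and 2 members at least 2-fold lower in SSM3, since genes near 0 in a line are then not tested. With each library left out in turn, members at least 2-fold higher stayed at 3 and those at least 2-fold lower ranged from 3 to 4, and related genes called higher and called lower stayed at 20 each. Scaling by library size only gave Ctnnb1 a log2 fold change of -1.08, Ctnna1 -0.44 and Afdn -0.40, a shift that follows the median of all genes, which was 0.16 there. Under it 5373 genes in all were called higher and 4140 lower in SSM3, against 4746 and 4820 with TMM. Arvcf, a p120-catenin relative, had a log2 fold change of -0.76 (edgeR adjusted p = 0.0061), and DESeq2 gave it an adjusted p of 0.105. Leaving out the library with most of the counts on the low side made the fitted folds of Cdh2, Cdh5, Cdh13, Cdh17, Snai2, Zeb1 and Camsap3 over 1.5 times as large on the linear scale, with log2 values given beside each. Limma-voom made folds over 1.5 times smaller for Cdh13 (log2 fold change -8.40), Snai2 (-8.31), Zeb1 (-7.51), Camsap3 (8.42) and Cdh15 (6.22, against 8.17 in edgeR).

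Deviations of same-numbered libraries of the lines correlated at 0.012, 0.015 and 0.027. Those of differently numbered libraries ran from -0.021 to 0.0076. All are small and the same-numbered ones are the highest, so whether replicate numbers pair the samples cannot be decided from them. With the replicate number as a block, 20 related genes were called higher and 20 lower, 3 members were at least 2-fold higher and 4 at least 2-fold lower in SSM3, and 4705 genes in all were called higher and 4776 lower. Differences among counts of 3 or fewer were not detectable at this depth.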

Other observations

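SSM3 replicate 3, in which Ctnnd1 was low, was more than 2-fold below both other SSM3 libraries for 49 of 6654 genes at 20 CPM or more (0.736%), against 0 or 1 gene in each of the 5 other libraries. Ctnnd1 was at 102, 85.8 and 38.0 CPM in SSM3 replicates 1 to 3. Arvcf, another p120-type catenin, was at 45.0, 38.4 and 15.7 CPM, and Gja1, the gap junction gene of connexin 43, at 600, 461 and 211 CPM. Of these 49 genes only Ctnnd1 and Arvcf are in the lists used here, and Gja1 was picked after its values were seen. The others include Tsnax, Idi1 and Psmb9, which are not junction genes, so a drop particular to junction genes is not shown. The cause was not tested.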
